A study of Homo sapiens with 24 samples.

Results

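DNA repair genes are described here across 8 groups of prostate cancer cells, by repair pathway. They were given as a fixed list of 41 genes from 8 pathways, and each gene was read from 1 probe set, the set with the highest mean over the 24 arrays. Of the 41 genes, 38 were analysed, out of 19775 genes on the arrays, and the other 3 listed genes were not analysed here. The choice of genes used no measured change, but the list was drawn up with earlier results of these data known.

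RNA was measured on Affymetrix HG-U133 Plus 2.0 expression arrays with 54675 probe sets. The cells were VCaP, a prostate cancer line in which the androgen-driven TMPRSS2 gene is fused to the ETS transcription factor gene ERG, and LNCaP, a prostate cancer line with a rearranged gene for the ETS factor ETV1. VCaP cells received siERG or siControl and LNCaP cells shETV1 or shControl. The LNCaP control is called shControl in the sample titles, which are followed here, but siControl in another label, so whether it was an shRNA is not settled. After 24 h of RNA interference the cells spent 2 days without hormone, followed by 16 h with 10 nM dihydrotestosterone (DHT), the active androgen, or with its vehicle ethanol (EtOH). The 8 groups were therefore siERG with DHT, siControl with DHT, siERG with EtOH and siControl with EtOH in VCaP, and shETV1 with DHT, shControl with DHT, shETV1 with EtOH and shControl with EtOH in LNCaP, with 3 biological replicates each, lettered A to C. Every group passed through RNA interference and hormone depletion, so no group shows untreated cells, and each knockdown is known in 1 line only. How many siRNAs or shRNAs were used per target was not stated.

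Repair genes guard the genome along several routes. Homologous recombination copies an intact sister sequence to mend a broken chromosome, and end joining ligates the broken ends directly. The Fanconi anaemia proteins act on crosslinks between the strands, mismatch repair corrects copying errors, and base and nucleotide excision cut out damaged bases or stretches of a strand. Kinases that sense damage stop the cell cycle meanwhile. Many of these genes are more active in cycling cells, and in prostate cancer both androgen signalling and ETS factors have been linked to strand breaks and their repair.

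Intensities are linear array values. Changes are differences of log2(intensity + 16), which understates the change of dim genes, and were tested with limma within each line, with Benjamini-Hochberg adjustment over the 12850 genes tested in VCaP or the 12809 in LNCaP. Percent changes were derived from these differences with the 16 included, so they deviate slightly from the ratios of the printed intensities. A gene rose or fell where its adjusted p was below 0.05. Of the 38 genes, 37 lay above the array median on all 12 arrays of each line and were tested. XRCC3, a recombination gene, had intensities of 11.7 to 41.8 over the 24 arrays, below the array median everywhere, and was not tested.

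The array medians were 47.6 to 53.3 in VCaP and 42.7 to 44.8 in LNCaP, and the lowest correlation within a group was 0.989. ERG averaged 576 ± 13.5 with siERG and EtOH and 1031 ± 82.3 with siControl and EtOH (SD, n = 3 each), a change of -0.82 ± 0.06 (log2, SE), and -1.09 ± 0.06 with DHT, so ERG RNA was lowered but not lost. ETV1 changed by -0.61 ± 0.07 with shETV1 and EtOH and by -0.62 ± 0.07 with shETV1 and DHT. With DHT the androgen target KLK3 rose by 0.61 in siControl VCaP cells and by 2.47 in shControl LNCaP cells, and TMPRSS2 by 0.71 and 3.04. Of 9 luminal prostate markers with a probe set, 9 had a mean above the array median in every group, against 0 of 3 basal markers. Of 5 neuroendocrine markers, 4 or 5 lay above it in the VCaP groups and 1 in each LNCaP group.

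Promoters of repair genes bear on the design because ETS factors and the androgen receptor bind DNA. RefSeq promoter sequences (GRCh38.p14, 250 bases before to 50 after the outermost start listed for a gene) were found for 32 of the 38 genes. The ETS sequence CCGGAAGT, on either strand, stood in 4 of the 32, or 12.5%, against 4.42% of all 27305 promoters. Those genes are LIG4, RAD50, RAD18 and OGG1. The stretches around the matches are given first because ETS factors were silenced. UNG and APEX1 follow as the base excision genes that fell most with DHT in VCaP, each with the CCAAT sequence near its start. Each stretch is written 5′ to 3′ on the gene's own strand, with the matching letters in capitals.
LIG4, chr13:108218423-108218512, minus strand: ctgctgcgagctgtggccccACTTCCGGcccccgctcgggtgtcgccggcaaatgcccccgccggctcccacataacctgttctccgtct
RAD50, chr5:132556802-132556913, plus strand: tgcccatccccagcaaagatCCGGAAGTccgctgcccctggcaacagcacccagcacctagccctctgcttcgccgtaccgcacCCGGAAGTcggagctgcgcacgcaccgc
RAD18, chr3:8963473-8963562, minus strand: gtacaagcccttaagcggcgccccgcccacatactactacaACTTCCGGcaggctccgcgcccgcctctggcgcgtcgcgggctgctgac
OGG1, chr3:9749896-9749976, plus strand: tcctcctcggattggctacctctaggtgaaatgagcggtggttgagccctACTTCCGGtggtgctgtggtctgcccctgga
UNG, chr12:109097545-109097621, plus strand: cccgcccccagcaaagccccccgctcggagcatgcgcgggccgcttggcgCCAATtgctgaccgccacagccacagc
APEX1, chr14:20455119-20455208, plus strand: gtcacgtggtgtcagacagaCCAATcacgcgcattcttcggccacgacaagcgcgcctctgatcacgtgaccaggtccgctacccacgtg

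RAD50 held the ETS sequence at 2 places, starting at -155 and -91 from its start, and LIG4 at -143, RAD18 at -49 and OGG1 at -6. CCAAT, on either strand, stood in 53.1% of the 32 promoters, against 35.7% of all promoters, and the E2F sequences TTTCGCGC, TTTGGCGC and TTTCCCGC in 15.6%, against 2.79%. By DHT response in siControl VCaP cells, CCAAT stood in 4 of 8 promoters of genes that fell and 2 of 5 that rose. Among genes that did not pass it stood in 10 of 18. It started at -2 in UNG and at -87 in APEX1. The cell-cycle element TTTGAA or TTCGAA stood in 12.5%, against 16.7%, and the androgen receptor sequence AGAACA in 18.8%, against 14.8%. The E2F matches at the MSH3 promoter overlapped each other, and no other matches did. These matches describe letters and not binding, and no binding was measured.

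**Figure D1:**
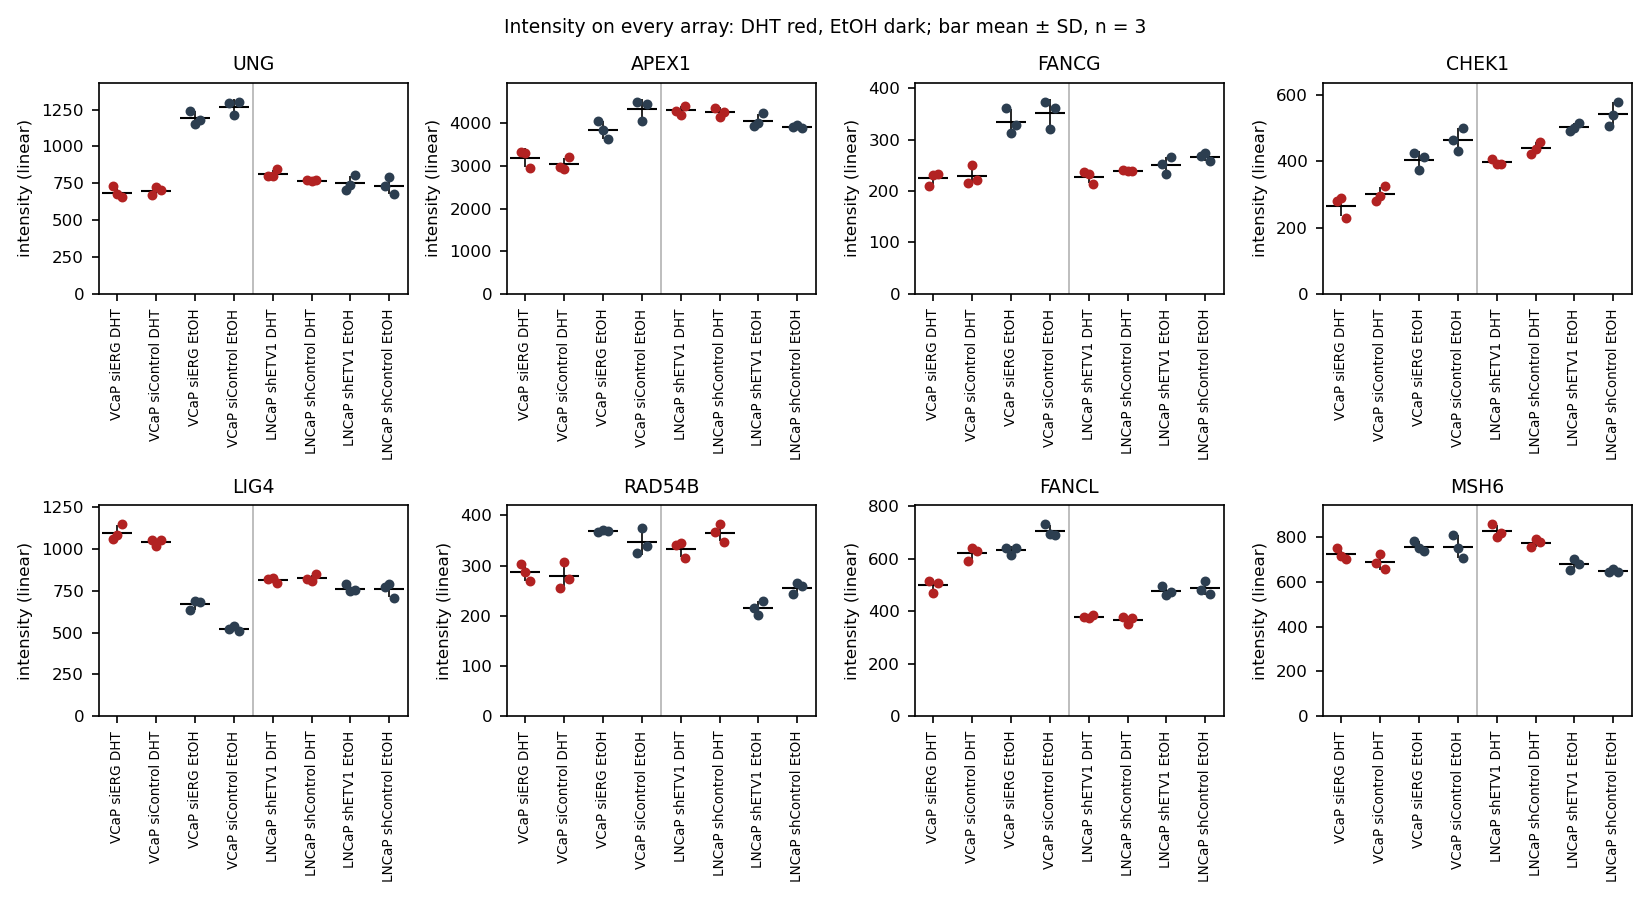
Intensity (linear, from 0) of 8 repair genes on every array, with the groups on the horizontal axis, the DHT groups in red left of the EtOH groups in dark, and mean ± SD bars (n = 3). UNG with DHT stayed at 654 to 731 in VCaP, below every VCaP EtOH array, whereas LIG4 with DHT stood at 1021 to 1148, above every VCaP EtOH array.

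In siControl VCaP cells DHT changed 16 of the 37 tested repair genes, or 43.2%, against 45.2% of all genes. Of these 6 rose, as did 19.6% of all genes, and 10 fell, as did 25.5%. Those shares lie near the background. Their median change was -0.07, against -0.03 over all tested genes. LIG4, the ligase that seals joined ends, had the largest rise, and the uracil glycosylase UNG, the checkpoint kinase gene CHEK1, the Fanconi core gene FANCG and the abasic-site nuclease APEX1 had the largest falls. In bulk RNA, fewer cells that carry a transcript and less of it per cell cannot be told apart. The summed intensity of 6 fibroblast markers was 339 to 543 with DHT, against 576 to 660 with EtOH, in siControl VCaP cells, and 446 to 512 with DHT, against 574 to 604 with EtOH, in shControl LNCaP cells. It was 413 to 450 with DHT, against 663 to 789 with EtOH, in siERG cells, and 414 to 475 with DHT, against 569 to 613 with EtOH, in shETV1 cells. LUM made up much of the difference in VCaP, with a mean of 29.4 with DHT and 232 with EtOH in siControl cells. Its part in the repair results was not tested.

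Base excision repair in VCaP was led by UNG, which removes uracil from DNA. UNG had 668, 722 and 702 on the siControl DHT arrays, against 1296, 1214 and 1300 on the siControl EtOH arrays. It fell by 44.5%, a change of -0.85 ± 0.06 (log2, SE; adjusted p = 6.47e-07), and the arrays of the 2 groups did not overlap. With siERG it had 731, 678 and 654 with DHT, against 1242, 1150 and 1178 with EtOH, a change of -0.78 ± 0.06. APEX1, which cuts the strand where a base is missing, had 2982, 2938 and 3213 on the siControl DHT arrays, against 4498, 4059 and 4455 with EtOH. It fell by 29.7% (log2 change -0.51 ± 0.07, adjusted p = 0.000128). Its fall in siERG cells was -0.27 ± 0.07, with 3325, 3316 and 2946 on the DHT arrays and 4062, 3853 and 3629 on the EtOH arrays. The difference between those falls did not pass the test (interaction 0.24 ± 0.10, adjusted p = 0.399). PARP2, a break-sensing polymerase, fell by 0.13 on the log2 scale in siControl cells. That call was lost with quantile normalization (adjusted p = 0.0962) and with centred arrays (0.143). LIG3, the ligase that partners XRCC1, rose by 0.20 in siERG cells. PARP1, OGG1 and the scaffold gene XRCC1 passed in neither, with changes of 0.08, -0.07 and -0.22 in siControl cells.

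The rises in siControl VCaP cells included the end joining genes LIG4 and XRCC6. LIG4 had 1055, 1021 and 1056 with DHT, against 523, 538 and 508 with EtOH, in siControl cells. That was a rise of 96.7% (log2 change 0.98 ± 0.05, adjusted p = 9.23e-08), with no overlap between arrays. In siERG cells LIG4 had 1063, 1084 and 1148 with DHT, against 633, 692 and 683 with EtOH, a change of 0.70 ± 0.05. The siERG EtOH arrays lay above every siControl EtOH array. Both LIG4 probe sets rose, the other by 0.84 in siControl cells. Its partner XRCC4, which holds the ligase at the break, passed in neither group of VCaP cells, and XRCC5, the larger Ku subunit gene, rose by 0.20 in siERG cells. The smaller Ku subunit gene XRCC6, whose product caps broken ends, had 4680, 4653 and 4858 with DHT, against 4383, 4421 and 4071 with EtOH, a change of 0.14 ± 0.05 (adjusted p = 0.0387). That call was lost without any of 7 of the 12 arrays, with adjusted p up to 0.141 without siControl EtOH replicate C. PRKDC, the kinase that Ku recruits, fell by 0.21 ± 0.05, with 2117, 2141 and 2131 on the DHT arrays and 2566, 2554 and 2305 on the EtOH arrays, but by 0.07 with its probe sets averaged (adjusted p = 0.514).

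Among the sensors, ATR, the kinase that responds to stalled replication, had 1100, 1105 and 1144 with DHT, against 883, 876 and 802 with EtOH, in siControl cells. Its change was 0.38 ± 0.05 (adjusted p = 0.00013), and in siERG cells 0.27 ± 0.05, with 1035, 932 and 987 with DHT and 816, 809 and 820 with EtOH. A second ATR probe set rose too, by 0.26 and 0.28, whereas the average over all its probe sets gave 0.15 in siControl cells (adjusted p = 0.103) and -0.02 in siERG cells. CHEK1, the kinase that ATR activates, went the other way. It had 280, 296 and 324 with DHT, against 463, 431 and 501 with EtOH, in siControl cells. It fell by 34.2% (log2 change -0.60 ± 0.09, adjusted p = 0.000328). In siERG cells it had 279, 289 and 229 with DHT, against 425, 375 and 412 with EtOH, a change of -0.58 ± 0.09. All 4 CHEK1 probe sets were below 0 in both groups of VCaP cells.

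ATM, the kinase that responds to broken ends, and RAD50, of the complex that tethers them, depended on the probe set. The used ATM set had 499, 498 and 574 on the siControl DHT arrays, against 425, 460 and 420 with EtOH, a change of 0.26 ± 0.09 (adjusted p = 0.0331). Another ATM set fell by 0.31 in the same cells, and it is the set used when sets with the suffix _x_at or _s_at are left out (adjusted p = 0.0177). The ATM call was also lost without siControl EtOH replicate A (adjusted p = 0.089), siControl EtOH replicate C (0.0945) or siControl DHT replicate C (0.126). The used RAD50 set had 558, 544 and 553 with DHT, against 463, 496 and 440 with EtOH, in siControl cells (log2 change 0.24 ± 0.06), and 565, 560 and 503 with DHT, against 444, 475 and 470 with EtOH, in siERG cells (0.22 ± 0.06). Its other 2 sets stood at -0.12 and 0.00 in siControl cells, and 1 of them fell by 0.19 in siERG cells. No direction can therefore be given for ATM or RAD50 as genes. CHEK2, NBN, TP53BP1 and MDC1 did not pass in VCaP, with changes between -0.15 and 0.10 in siControl cells.

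Of the 8 tested homologous recombination genes, 2 fell and 1 rose with DHT in siControl VCaP cells, against 25.5% and 19.6% of all genes. In siERG VCaP cells 3 fell and 1 rose, against 25.3% and 20.1% of all genes. RAD54B, a motor protein that helps the broken end invade its template, had 256, 306 and 273 with DHT, against 325, 375 and 339 with EtOH, in siControl cells (log2 change -0.30 ± 0.07, adjusted p = 0.00552). In siERG cells it had 303, 286 and 270 with DHT, against 367, 372 and 368 with EtOH (-0.35 ± 0.07). RAD51AP1, which stimulates strand invasion, had 819, 896 and 871 with DHT, against 1047, 979 and 1031 with EtOH, in siControl cells (-0.24 ± 0.05, adjusted p = 0.0031), and fell by 0.24 in siERG cells as well. The RecQ helicase gene BLM passed in siERG cells only, by -0.28, and the difference from the -0.05 of siControl cells was not past the threshold. With quantile normalization BLM did not pass in siERG cells either (-0.20, adjusted p = 0.0658). Its sister helicase gene WRN rose, with 248, 264 and 240 with DHT, against 225, 209 and 209 with EtOH, in siControl cells (0.21 ± 0.07, adjusted p = 0.0222). Without siControl EtOH replicate B the adjusted p of WRN was 0.0678, without siControl EtOH replicate C 0.0679 and without siControl DHT replicate B 0.0811. BRCA1, RAD51C, RAD54L and XRCC2 did not pass, with changes of -0.17 to -0.02 in siControl cells.

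Of the Fanconi genes, FANCG of the core complex had 215, 251 and 221 with DHT, against 373, 321 and 361 with EtOH, in siControl VCaP cells. It fell by 33.4% (log2 change -0.59 ± 0.08, adjusted p = 0.000142). In siERG cells it had 210, 231 and 234 with DHT, against 362, 313 and 330 with EtOH (-0.54 ± 0.08). FANCL, the ubiquitin ligase of the pathway, fell by 0.18 in siControl and by 0.33 in siERG cells, and FANCI, its substrate, did not pass. The siControl call of FANCL was lost with quantile normalization (adjusted p = 0.0512). XPC, which recognises distorted DNA in nucleotide excision repair, had 754, 692 and 759 with DHT, against 903, 921 and 897 with EtOH, in siControl cells (-0.30 ± 0.07, adjusted p = 0.00356). ERCC1, a subunit of the nuclease that cuts beside the damage, rose in siERG cells, with 358, 351 and 355 with DHT, against 302, 305 and 291 with EtOH (0.23 ± 0.04, adjusted p = 0.000798), and all 3 of its probe sets rose there. Mismatch repair had 1 call in VCaP, PMS1, which fell by 0.25 in siERG cells. That call was lost with centred arrays (-0.18, adjusted p = 0.0597). RAD18, the ubiquitin ligase that opens translesion synthesis, did not pass in VCaP.

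**Figure D2:**
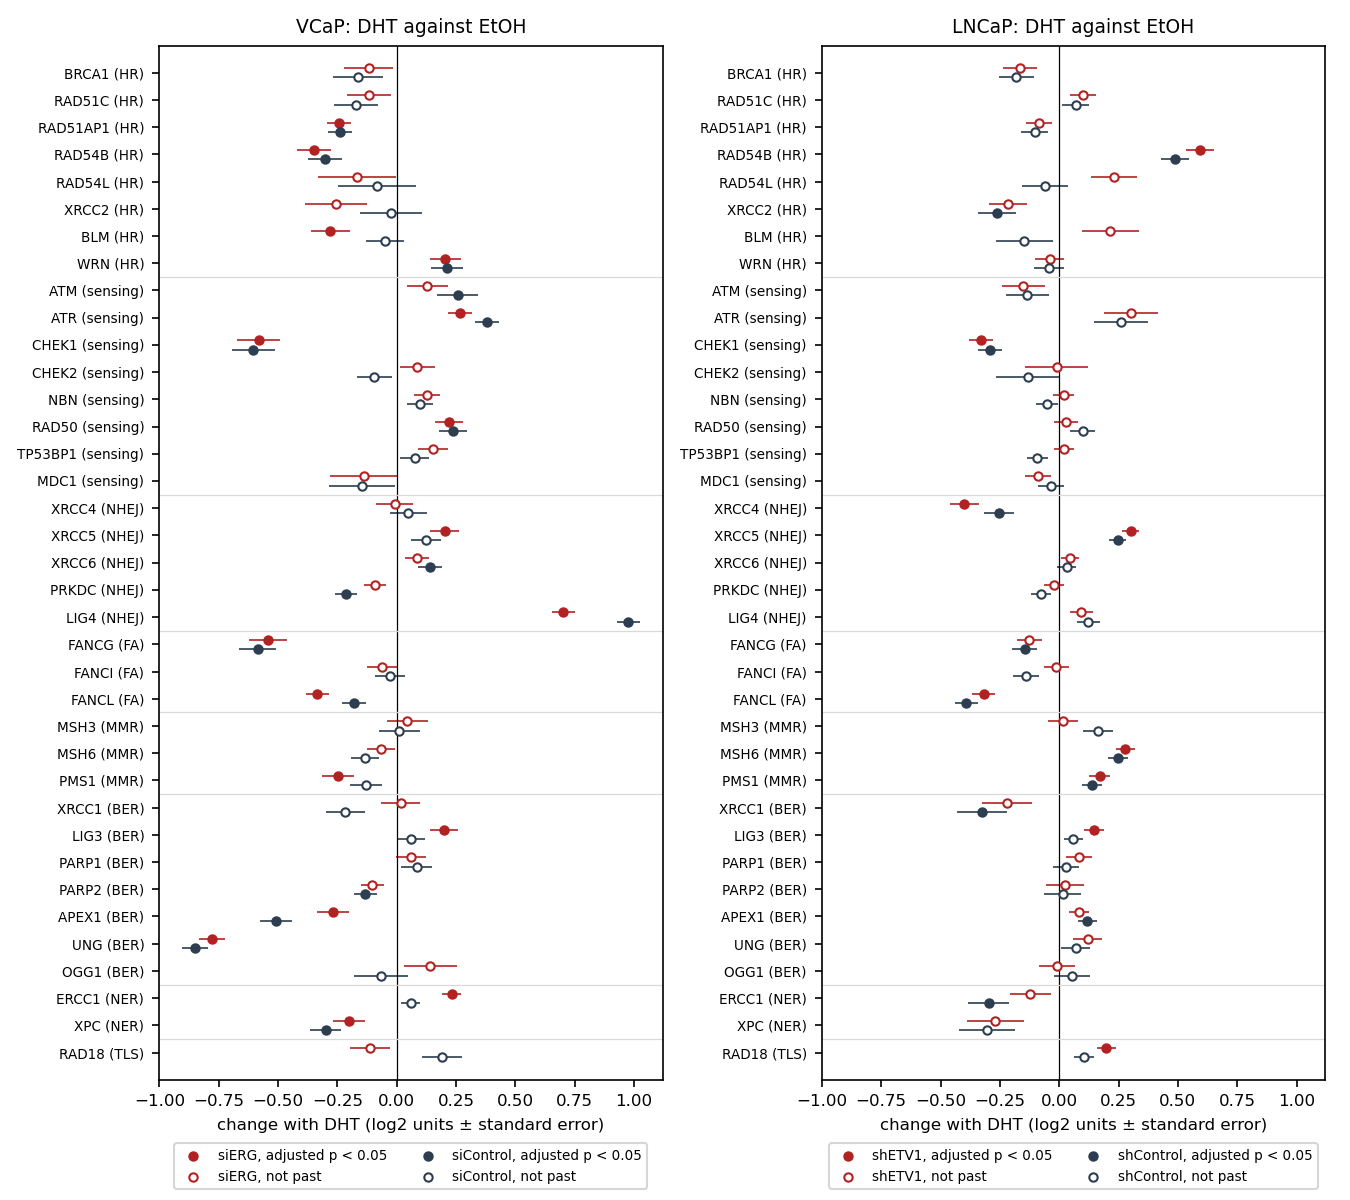
Change with DHT (horizontal axis, log2 units, bars ± SE) of the 37 tested repair genes, ordered by pathway, in VCaP (left) and LNCaP (right), with knockdown cells in red and control cells in dark, and filled points past adjusted p 0.05 (HR homologous recombination, NHEJ end joining, FA Fanconi anaemia, MMR mismatch repair, BER and NER base and nucleotide excision repair, TLS translesion synthesis). In VCaP, LIG4 stands far right at 0.70 and 0.98 and UNG far left at -0.78 and -0.85, and in LNCaP RAD54B is the farthest right, at 0.59 and 0.49.

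In siERG VCaP cells 17 of the 37 genes passed with DHT, or 45.9%, against 45.4% of all genes. Of these 7 rose, against 20.1% of all genes, and 10 fell, against 25.3%. With centred arrays the split was 10 up and 8 down, and over all genes 3442 up and 2463 down, in place of 2580 up and 3254 down. No array is shared with the siControl comparison. By the used probe sets the rises had 4 genes in common, LIG4, ATR, RAD50 and WRN, which is 57.1% of those in siERG cells and 66.7% of those in siControl cells. RAD50 had no settled direction as a gene, and the ATR rise was lost with its probe sets averaged. The falls had 8 in common, UNG, CHEK1, FANCG, APEX1, RAD54B, RAD51AP1, XPC and FANCL, which is 80% of either list. With centred arrays XPC was lost in siERG cells (-0.13, adjusted p = 0.174). With quantile normalization FANCL was lost in siControl cells (-0.14, adjusted p = 0.0512). The overlap over all genes was not counted, so these shares show nothing particular to repair genes. None of the 37 genes had a DHT response that differed between siERG and siControl cells by limma's interaction test, against 0.35% of all genes (0.0778% higher and 0.272% lower in siERG cells), and 4 had an unadjusted p below 0.05. LIG4 had the smallest of these (interaction -0.27 ± 0.07, adjusted p = 0.172). The GAPDH 3′ to 5′ intensity ratio, a measure of RNA integrity, was 1.03 ± 0.01 with siERG and DHT and 1.09 ± 0.02 with siERG and EtOH (SD, n = 3 each). With that ratio in the fit, 6 members passed with DHT in siERG cells in place of 17, and 20% of all genes in place of 45.4%. The GAPDH ratio did not overlap between these groups, so that fit cannot tell an effect of RNA integrity from lost precision. The ACTB 3′ to 5′ ratio, which was not put into a fit, was 2.84 ± 0.31 with siERG and DHT and 3.05 ± 0.45 with siERG and EtOH (SD, n = 3 each).

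In shControl LNCaP cells DHT changed 12 of the 37 genes, or 32.4%, against 40.9% of all genes, with a median of -0.04, against -0.01 over all tested genes. Of these 5 rose, against 18.6% of all genes, and 7 fell, against 22.3%, but with centred arrays 8 rose and 5 fell. In shETV1 cells 9 passed, or 24.3%, against 37.9% of all genes, with a median of 0.02. Of these 6 rose, against 18.9% of all genes, and 3 fell, against 19%, but with quantile normalization 6 rose and 6 fell. RAD54B, XRCC5 and MSH6 had the largest rises in both. FANCL and, by its used probe set, CHEK1 were among the falls in both.

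RAD54B, lower with DHT in VCaP, was higher with DHT in LNCaP. It had 366, 382 and 347 with DHT, against 244, 265 and 259 with EtOH, in shControl cells, a rise of 40.1% (log2 change 0.49 ± 0.06, adjusted p = 5.82e-05). In shETV1 cells it had 340, 344 and 314 with DHT, against 215, 202 and 229 with EtOH (0.59 ± 0.06). The DHT and EtOH arrays did not overlap in either. XRCC5 had 4437, 4374 and 4311 with DHT, against 3676, 3766 and 3615 with EtOH, in shControl cells (0.25 ± 0.04), and 4473, 4341 and 4426 with DHT, against 3499, 3585 and 3648 with EtOH, in shETV1 cells (0.30 ± 0.04). A second XRCC5 set rose by 0.27 and 0.33, and another, dim set stood at 0.02 in shControl cells. XRCC2, a recombination gene, was at 70.2, 55.2 and 61.2 with DHT, against 83.7, 79.8 and 69.8 with EtOH, in shControl cells (-0.26 ± 0.08, adjusted p = 0.023). These XRCC2 arrays overlapped, and the call was lost without shControl EtOH replicate A (adjusted p = 0.0846), shControl EtOH replicate B (0.0647), shControl DHT replicate B (0.0896) or shControl DHT replicate C (0.0577).

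Of 3 tested mismatch repair genes, 2 rose with DHT in shControl and in shETV1 LNCaP cells, where 18.6% and 18.9% of all genes rose. So few genes allow no statement about the pathway. MSH6, which with its partner recognises mispaired bases, had 754, 790 and 776 with DHT, against 645, 657 and 645 with EtOH, in shControl cells (log2 change 0.25 ± 0.04, adjusted p = 0.000677). In shETV1 cells it had 856, 802 and 817 with DHT, against 652, 701 and 677 with EtOH (0.28 ± 0.04), and its second probe set rose in both, by 0.25 and 0.33. Averaging all its probe sets gave 0.10 in shControl cells (adjusted p = 0.329). PMS1 had 808, 810 and 865 with DHT, against 729, 761 and 761 with EtOH, in shControl cells (0.14 ± 0.04, adjusted p = 0.0259), and rose by 0.17 in shETV1 cells. The shControl call was lost without shControl EtOH replicate A (adjusted p = 0.0898) or shControl DHT replicate C (0.0936), and the other PMS1 set stood at -0.03 there. MSH3, the alternative partner for larger loops, did not pass (0.16 and 0.02 in shControl and shETV1 cells).

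Falls in LNCaP were led by FANCL. It had 377, 352 and 374 with DHT, against 482, 514 and 465 with EtOH, in shControl cells. It fell by 23.8% (log2 change -0.39 ± 0.05, adjusted p = 6.43e-05). In shETV1 cells it had 377, 375 and 385 with DHT, against 496, 462 and 474 with EtOH (-0.32 ± 0.05). XRCC4 had 244, 246 and 226 with DHT, against 300, 267 and 297 with EtOH, in shControl cells (-0.25 ± 0.06), and 216, 210 and 188 with DHT, against 284, 270 and 269 with EtOH, in shETV1 cells (-0.40 ± 0.06). With its probe sets averaged XRCC4 did not pass in either, at -0.16 and -0.10. The used CHEK1 set had 422, 437 and 458 with DHT, against 506, 539 and 578 with EtOH, in shControl cells (-0.29 ± 0.05), and 406, 391 and 392 with DHT, against 490, 501 and 515 with EtOH, in shETV1 cells (-0.33 ± 0.05). Its other 3 sets lay above 0 in LNCaP, between 0.09 and 0.26, and 1 of them rose in shETV1 cells, so CHEK1 has no settled direction in this line.

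**Figure D3:**
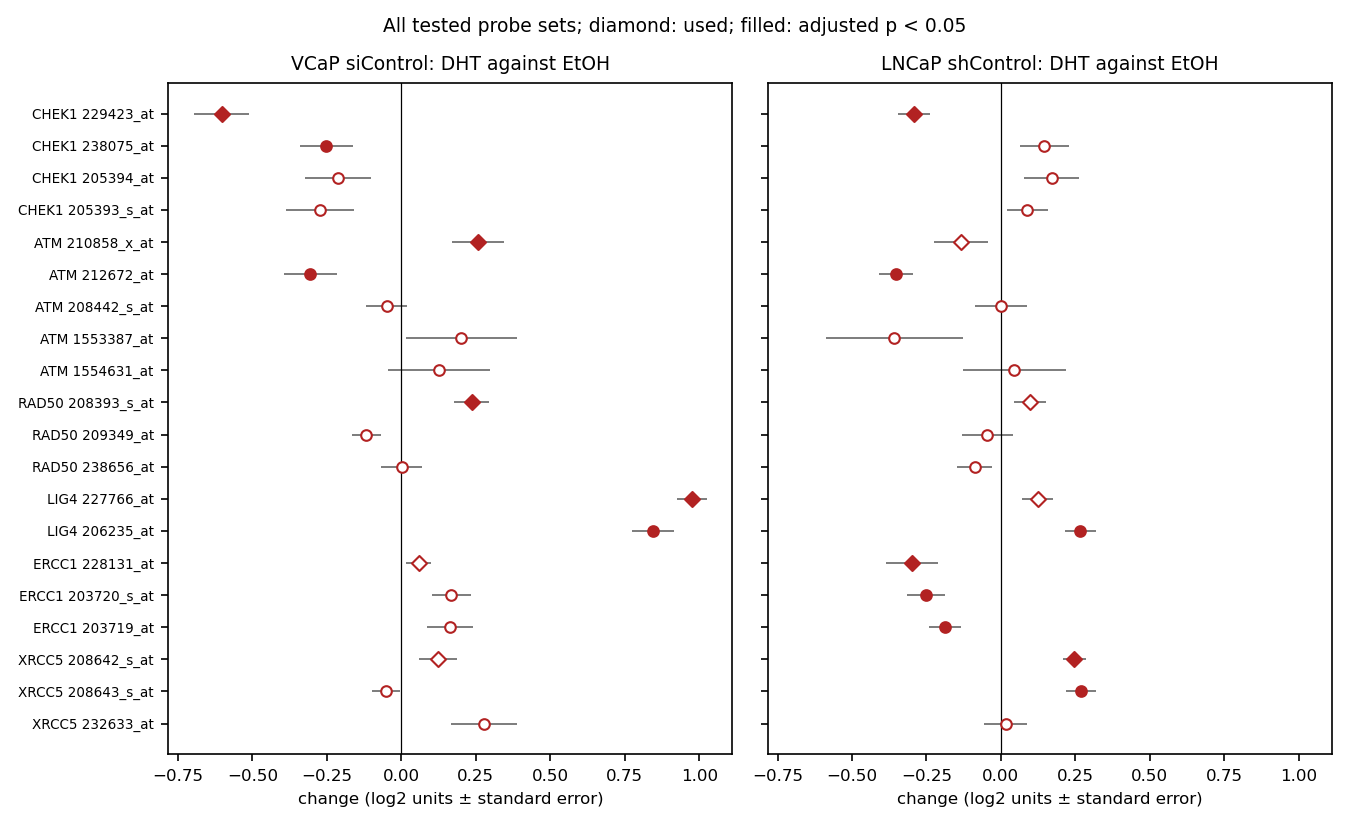
Change with DHT (horizontal axis, log2 units, bars ± SE) of every tested probe set of 6 repair genes in siControl VCaP (left) and shControl LNCaP (right) cells, with the used set as a diamond and sets past adjusted p 0.05 filled. The LIG4 sets stand together at 0.98 and 0.84 in VCaP and the ERCC1 sets at -0.30, -0.25 and -0.19 in LNCaP, while the ATM sets lie on both sides of 0 in VCaP and the CHEK1 sets in LNCaP.

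The remaining LNCaP calls were smaller or rested on few arrays. ERCC1 had 323, 300 and 241 with DHT, against 360, 373 and 333 with EtOH, in shControl cells (-0.30 ± 0.09, adjusted p = 0.0175), and all 3 of its probe sets fell. That call was lost without shControl EtOH replicate B (adjusted p = 0.0596). XRCC1, the scaffold of single-strand break repair, had 136, 143 and 123 with DHT, against 170, 205 and 145 with EtOH, in shControl cells (-0.33 ± 0.11, adjusted p = 0.0288). It did not pass without shControl EtOH replicate A (adjusted p = 0.0597), shControl EtOH replicate B (0.0945), shControl DHT replicate A (0.0581) or shControl DHT replicate C (0.0957).

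FANCG had 242, 240 and 238 with DHT, against 268, 275 and 259 with EtOH, in shControl cells (-0.15 ± 0.05, adjusted p = 0.0475). APEX1 had 4368, 4147 and 4276 with DHT, against 3907, 3970 and 3897 with EtOH, in shControl cells (0.12 ± 0.04, adjusted p = 0.0403). The FANCG call was lost without any of 9 of the 12 arrays and the APEX1 call without any of 7, with adjusted p up to 0.128 (without shControl EtOH replicate B) and 0.125 (without shControl DHT replicate A). RAD18 rose in shETV1 cells, with 96.1, 98.4 and 93.1 with DHT, against 84.4, 81.9 and 78.0 with EtOH (0.20 ± 0.04, adjusted p = 0.00293), but its second probe set stood at 0.07. LIG3 rose by 0.15 in shETV1 cells. UNG, the listed gene with the largest fall in VCaP, had 770, 765 and 769 with DHT, against 731, 789 and 677 with EtOH, in shControl cells (0.07 ± 0.06, not past the threshold), and LIG4 820, 811 and 851 with DHT, against 776, 794 and 707 with EtOH (0.12 ± 0.05, adjusted p = 0.0681), although its other probe set rose by 0.27 there. ATR and XPC did not pass in shControl cells either, at 0.26 (adjusted p = 0.093) and -0.30 (adjusted p = 0.0633). The remaining tested genes that did not pass in shControl cells had changes between -0.18 (BRCA1) and 0.16 (MSH3).

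No array is shared between the DHT comparisons in shETV1 and shControl cells. By the used probe sets the rises had RAD54B, XRCC5, MSH6 and PMS1 in common, 66.7% of those in shETV1 cells and 80% of those in shControl cells. The falls had CHEK1, FANCL and XRCC4 in common, 100% of those in shETV1 cells and 42.9% of those in shControl cells. CHEK1 had no settled direction in this line. The overlap over all genes was not counted here either. By limma's interaction test 0 of the 37 genes differed in their DHT response between shETV1 and shControl cells, against 0.101% of all genes (0.0781% higher and 0.0234% lower in shETV1 cells), and 0 had an unadjusted p below 0.05.

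The DHT responses of the control cells were next set against each other between the lines, as LNCaP minus VCaP in a fit of all 24 arrays. Of the 37 genes, 13 differed, or 35.1%, against 31.9% of the 12293 genes tested in both lines. The response was higher in LNCaP for 7, against 17.6% of all genes, and lower for 6, against 14.3%. With quantile normalization it was higher for 7 and lower for 10, and over all genes higher for 1932 and lower for 2403, in place of 2164 and 1763. LIG4 (difference -0.85 ± 0.07, adjusted p = 6.09e-09) rose in VCaP far more than in LNCaP. UNG (0.92 ± 0.08, adjusted p = 4.24e-08), APEX1 (0.63 ± 0.08) and FANCG (0.44 ± 0.10) fell in VCaP, whereas in shControl LNCaP cells UNG did not pass, and the APEX1 and FANCG calls were small. With quantile normalization those were lost, APEX1 at 0.042 (adjusted p = 0.408) and FANCG at -0.11 (adjusted p = 0.0738). RAD54B changed sign between the lines, rising in LNCaP and falling in VCaP (0.79 ± 0.09, adjusted p = 1.85e-06). ATM differed by -0.39 ± 0.13 with the used set, but by -0.05 when _x_at and _s_at sets were left out. MSH6, PMS1 and CHEK1 also had the higher response in LNCaP, and ERCC1, XRCC4, WRN and FANCL the lower. FANCL, and by the used probe sets CHEK1 and FANCG, fell in the control cells of both lines, 42.9% of the falls in LNCaP and 30.0% of those in VCaP. The matching shares over all genes were not counted. In LNCaP the other CHEK1 sets lay above 0, and FANCG did not pass without any of 9 of the 12 arrays.

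**Figure D4:**
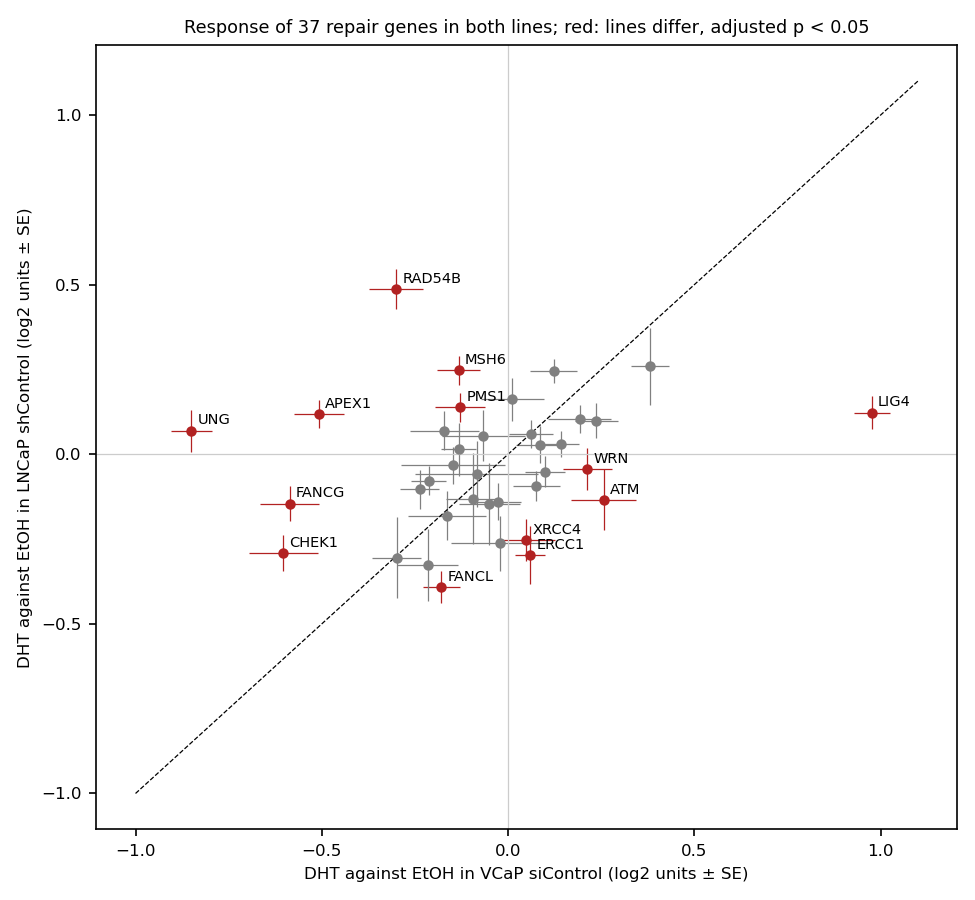
Change with DHT in shControl LNCaP cells (vertical axis) against that in siControl VCaP cells (horizontal axis), both in log2 units with ± SE bars, for the 37 tested repair genes, with red, named points where the lines differed at adjusted p below 0.05 and the dashed line marking equal responses. UNG at 0.07 in LNCaP and -0.85 in VCaP, RAD54B at 0.49 and -0.30, and LIG4 at 0.12 and 0.98 lie farthest from the dashed line.

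With siERG few repair genes passed the threshold, which does not show that the others were unchanged. With EtOH 2 of the 37 genes passed, or 5.41%, against 11.3% of all genes, with a median of -0.06, against 0.01 over all tested genes. Of these 1 rose, against 5.37% of all genes, and 1 fell, against 5.92%. Over all genes 690 rose and 761 fell, or 393 and 1173 with centred arrays. The share of all genes was 6.31% without siERG EtOH replicate B. LIG4, whose promoter holds the ETS sequence, had 633, 692 and 683 with siERG and EtOH, against 523, 538 and 508 with siControl and EtOH (log2 change 0.35 ± 0.05, adjusted p = 0.00134). Its groups did not overlap, and its second probe set stood at 0.33. ERCC1 had 302, 305 and 291 with siERG, against 341, 325 and 331 with siControl (-0.14 ± 0.04, adjusted p = 0.0463). That call was lost without any of 11 of the 12 arrays, with adjusted p up to 0.152 without siControl EtOH replicate A. None of the 7 base excision genes passed by limma with siERG and EtOH, with changes of -0.20 to -0.02, and 3 had an unadjusted p below 0.05. RAD18, another gene with the ETS sequence, had 125, 120 and 140 with siERG, against 106, 109 and 102 with siControl (0.24 ± 0.08, adjusted p = 0.0944). RAD50 and OGG1 stood at -0.01 and -0.11.

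With DHT, 2 of the 37 genes fell with siERG and 0 rose, or 5.41%, against 9.05% of all genes (3.81% rose and 5.24% fell). The share of all genes was 5.47% without siControl DHT replicate C. FANCL had 517, 471 and 509 with siERG and DHT, against 594, 640 and 629 with siControl and DHT (-0.31 ± 0.05, adjusted p = 0.00337). PMS1 had 725, 691 and 634 with siERG, against 819, 781 and 845 with siControl (-0.25 ± 0.07, adjusted p = 0.0427). The FANCL arrays and the PMS1 arrays did not overlap between groups, but PMS1 was lost without any of 9 of the 12 arrays (adjusted p up to 0.137, without siControl DHT replicate C) and stood at -0.05 with its probe sets averaged. LIG4 was at 0.07 ± 0.05 with DHT.

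The GAPDH ratio was 1.09 ± 0.02 with siERG and EtOH and 1.05 ± 0.01 with siControl and EtOH, and 1.03 ± 0.01 with siERG and DHT and 1.07 ± 0.01 with siControl and DHT (SD, n = 3 each). With it in the fit, 0 of the 37 genes passed with EtOH, against 2.21% of all genes, and 0 with DHT, against 2.27%. LIG4 stood at 0.27 ± 0.07 (SE; adjusted p = 0.0928), in place of 0.35 ± 0.05. FANCL stood at -0.29 ± 0.08 (adjusted p = 0.124), in place of -0.31 ± 0.05. The GAPDH ratio did not overlap between the groups compared, and the standard errors grew. This fit therefore cannot tell an effect of RNA integrity from lost precision. The summed intensity of 4 leukocyte markers was 219 to 319 with siERG and EtOH, against 451 to 516 with siControl and EtOH, and 269 to 314 with siERG and DHT, against 509 to 552 with siControl and DHT. LYZ made most of it, while PTPRC, the defining leukocyte gene, averaged 21.9 to 39.2 in the 8 groups, below the array medians. The neuroendocrine marker INSM1 averaged 153 with siERG and EtOH and 364 with siControl and EtOH, and 155 with siERG and DHT and 379 with siControl and DHT. The part of LYZ or INSM1 in these results was not tested.

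Silencing ETV1 in LNCaP gave 1 call of 37 with EtOH, a fall, or 2.70%, against 4.2% of all genes (1.23% rose and 2.97% fell). The share of all genes was 2.17% without shControl EtOH replicate A. RAD18 had 84.4, 81.9 and 78.0 with shETV1 and EtOH, against 96.8, 95.4 and 91.6 with shControl and EtOH (-0.18 ± 0.04, adjusted p = 0.0351). Its second probe set stood at -0.06, and the call was lost without any of 7 of the 12 arrays (adjusted p up to 0.129, without shControl EtOH replicate A). RAD54B had 215, 202 and 229 with shETV1, against 244, 265 and 259 with shControl (-0.24 ± 0.06, adjusted p = 0.0517). With DHT 1 gene rose and 0 fell, or 2.70%, against 5.18% of all genes (2.68% rose and 2.5% fell). Over all genes 343 rose and 320 fell, or 223 and 485 with centred arrays and 218 and 431 with quantile normalization. The share of all genes was 2.58% without shControl DHT replicate B. With quantile normalization RAD54L was lost (adjusted p = 0.0783) and XRCC4 fell by 0.26 (adjusted p = 0.0497), so that 0 members rose and 1 fell. RAD54L, a motor protein of strand exchange, had 102, 94.1 and 123 with shETV1 and DHT, against 83.8, 73.0 and 72.5 with shControl and DHT (0.40 ± 0.10, adjusted p = 0.043), and this call was lost without any of 8 of the 12 arrays (adjusted p up to 0.132, without shControl DHT replicate B). LIG4 stood at 0.01 with EtOH and -0.02 with DHT.

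**Figure D5:**
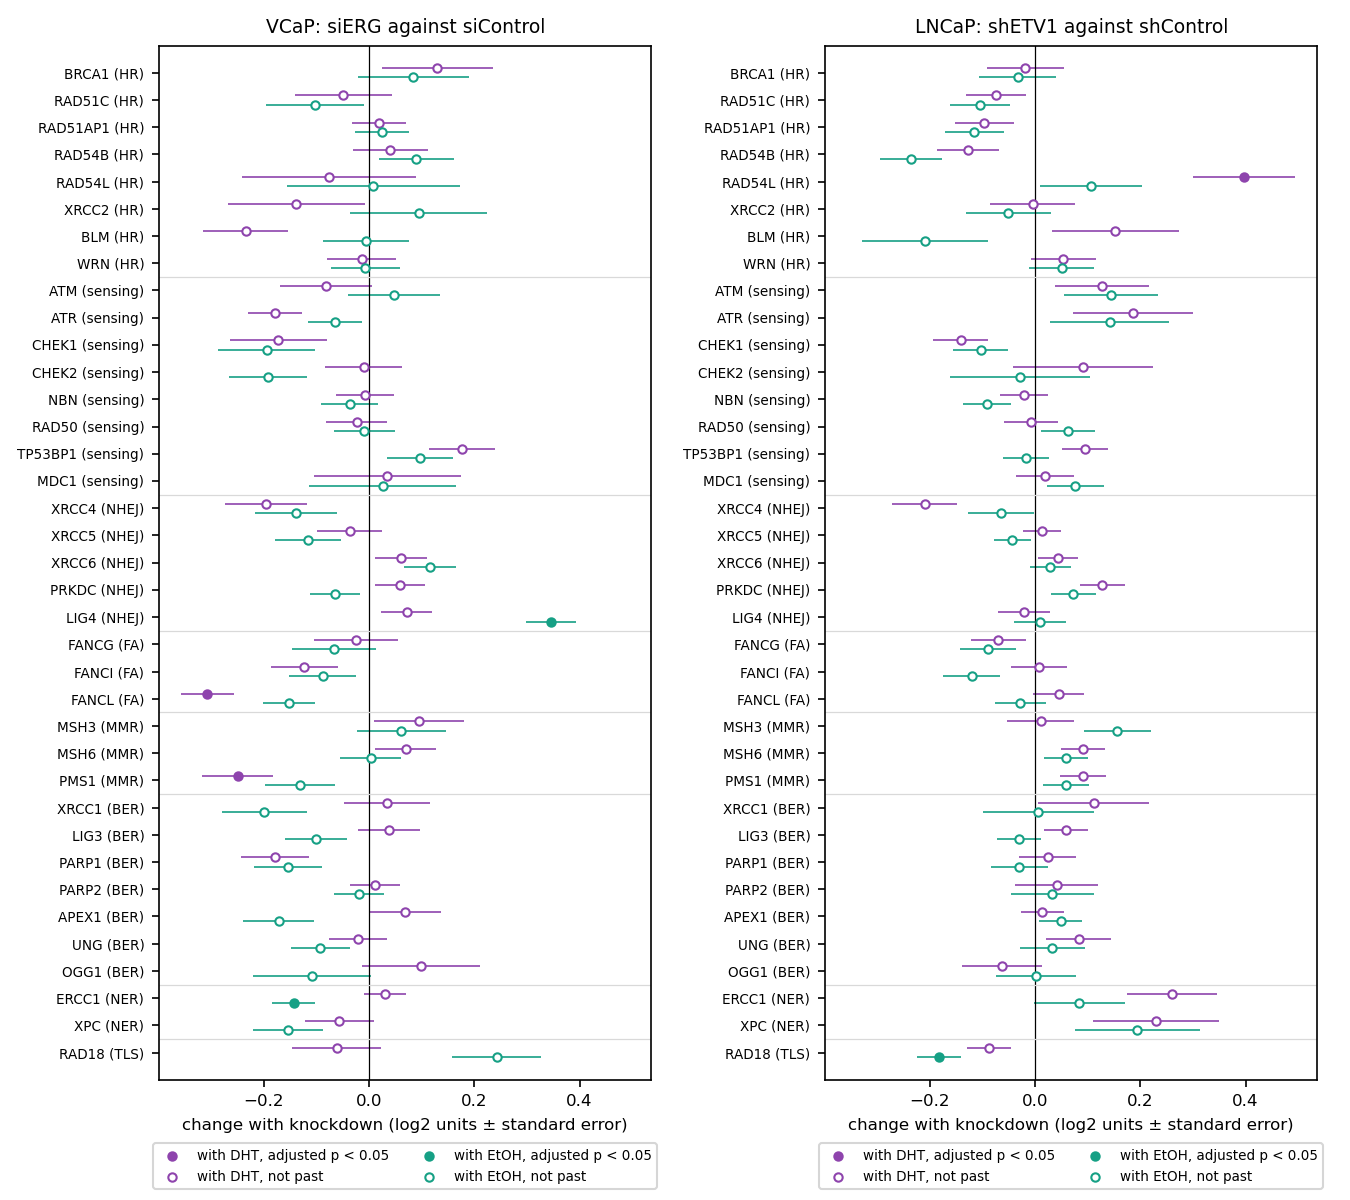
Change with knockdown (horizontal axis, log2 units, bars ± SE) of the 37 tested repair genes, ordered by pathway, for siERG against siControl in VCaP (left) and shETV1 against shControl in LNCaP (right), with DHT in purple and with EtOH in green, and filled points past adjusted p 0.05 (pathway abbreviations as for the DHT changes by pathway). Filled points are LIG4 at 0.35 and ERCC1 at -0.14 with EtOH and FANCL at -0.31 and PMS1 at -0.25 with DHT in VCaP, and RAD18 at -0.18 with EtOH and RAD54L at 0.40 with DHT in LNCaP.

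The knockdown effects differed between the lines, LNCaP minus VCaP, for 3 of the 37 genes with EtOH, all lower in LNCaP, or 8.11%, against 9.57% of all genes (4.16% higher and 5.41% lower). With centred arrays 3 members were higher (APEX1, PMS1 and PRKDC) and 2 lower, and over all genes 971 were higher and 448 lower, in place of 512 and 665. Without centring they were RAD18 (-0.43 ± 0.10, adjusted p = 0.00686), LIG4 (-0.34 ± 0.07, adjusted p = 0.00273) and RAD54B (-0.33 ± 0.09, adjusted p = 0.0331). The RAD18 difference was -0.08 with its probe sets averaged, and the RAD54B call was lost without any of 9 of the 24 arrays (adjusted p up to 0.0895, without VCaP siControl EtOH replicate A). With DHT 2 genes differed, FANCL (0.35 ± 0.07) and PMS1 (0.34 ± 0.08), both higher in LNCaP, or 5.41%, against 7.53% of all genes (4.3% higher and 3.24% lower). These comparisons set an siRNA against ERG beside an shRNA against ETV1, so the line, the target and the reagent cannot be told apart.

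A further 115 repair genes outside the list, of which 103 were tested in each line, gave the wider picture. With DHT in siControl VCaP cells 10 rose and 33 fell, or 41.7%, against 45.2% of all genes (19.6% rose and 25.5% fell), with a median of -0.11, against -0.03 over all tested genes. Those that fell most were RMI2 (-1.61), of the BLM complex, BARD1 (-1.04), the partner of BRCA1, and WEE1 (-0.90), a kinase that delays mitosis. ERCC4, the partner nuclease of ERCC1, rose by 0.51, CETN2, which binds XPC, by 0.46, and the nuclease subunit gene EME1 by 0.36. EME1 stood at -0.04 without _x_at and _s_at sets. In shControl LNCaP cells 15 rose and 26 fell, or 39.8%, against 40.9% of all genes (18.6% rose and 22.3% fell), with a median of -0.07, against -0.01. BARD1 fell by 1.62 there, and SMC6 and SMC5, which form a complex used in recombination, by 0.72 and 0.63. PARG, which removes poly(ADP-ribose), rose by 0.94, the nuclease gene APEX2 by 0.70 and RAD54L2, a relative of the RAD54 motor genes, by 0.54.

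With siERG and EtOH 6 of the 103 rose and 3 fell, or 8.74%, against 11.3% of all genes, among them ERCC4 (0.41), SMC6 (0.29), the glycosylase gene NTHL1 (-0.50) and RIF1 (-0.23), a partner of TP53BP1. With siERG and DHT 3 rose and 2 fell, or 4.85%, against 9.05% of all genes, including ALKBH2 (0.23) and MAD2L2 (0.23) upward and NTHL1 (-0.46) and FANCM (-0.36) downward. FANCM stood at 0.10 without _x_at and _s_at sets. With shETV1, 2 rose with EtOH, TDP1 (0.46) and DDB2 (0.36), and 2 with DHT, RMI2 (0.29) and ALKBH2 (0.25), or 1.94% in each, against 4.2% and 5.18% of all genes, and 0 fell by limma in either, where 16 had an unadjusted p below 0.05 in each. Some of these calls were lost when single arrays were left out, with any of 6 arrays for RIF1, 7 for MAD2L2, 4 for FANCM, 8 for DDB2, 7 for RMI2 and 6 for ALKBH2 with shETV1, and 1 (siControl DHT replicate B, adjusted p = 0.0609) for NTHL1 with DHT.

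Genes of replication and mitosis, whose RNA marks cycling cells, were counted beside the repair genes. With DHT in siControl VCaP cells 26 of 45 replication and S-phase genes fell and 3 rose, against 25.5% and 19.6% of all genes, with a median of -0.32, led by MCM2 (-0.98) and CHAF1A (-0.93), and 12 of 26 mitosis genes fell and 0 rose, led by TTK (-0.54) and CCNB2 (-0.50). In shControl LNCaP cells 6 replication genes rose and 6 fell, against 18.6% and 22.3% of all genes, with a median of -0.02, led by CCNE2 (-0.83) and CDC6 (0.75), and 8 mitosis genes fell and 0 rose, led by BUB1B (-0.29) and KIF11 (-0.19). With centred arrays 7 replication genes rose and 4 fell there and 2 mitosis genes fell, and with quantile normalization 6 replication genes rose and 12 fell and 10 mitosis genes fell. KIF11 did not pass without any of 3 arrays (adjusted p up to 0.0839, without shControl DHT replicate C). Their part in the falls of UNG, CHEK1, FANCG, RAD54B and RAD51AP1 in VCaP was not tested.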

How the data were processed

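RNA of 24 cultures was measured, 3 for each of 8 groups taken from the sample titles. The deposited values are array intensities on a linear scale, and the steps by which the authors derived these intensities from the scans were not stated. Probe sets naming 1 gene in the platform's gene table were kept (41097 of 54675), and each gene took the set with the highest mean over the 24 arrays (19775 genes). Genes above the array median on at least 3 of a line's 12 arrays were tested on log2(intensity + 16) with limma 3.58.1 in R 4.3.3, fitting the 4 groups of a line together, and line differences in a fit of all 24 arrays. P-values were adjusted over all tested genes by the Benjamini-Hochberg method. The method was checked on simulated data for the siControl DHT comparison, with independent noise and 200 of 12850 genes changed. It recovered 67.2% of changes of 0.5 and 32.8% of changes of 0.25 (log2), with 5.80% of calls false. In the data 45.2% of genes were called there, so the adjusted threshold was looser than in the simulation. These rates therefore do not carry over to the data. The 3 arrays of a group limit the precision. The members and gene lists were chosen with earlier results of these data known. Named genes are those past the threshold with the largest changes: up to 8 members each way with DHT in control cells, up to 4 in the other within-line comparisons and up to 6 for line differences. Of the other repair genes, up to 3 each way are named with DHT in control cells and up to 2 with knockdown, and of the replication and mitosis genes the 2 with the largest changes. Further members are named to account for their pathway or for a promoter match, whatever their change. Alternatives covered the choice of probe set, the filter, scaling, pseudocount, variance model, a replicate block, a GAPDH ratio covariate and each array left out. The replicate letters did not pair the arrays.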

Additional observations from a re-analysis of the deposited data

Results flagged for a closer look

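The items below are the repair genes whose response was tested to differ between the lines (LNCaP minus VCaP, log2 units ± SE, limma over 12293 genes, adjusted p below 0.05). For the DHT response of control cells the difference was 0.92 ± 0.08 for UNG, 0.79 ± 0.09 for RAD54B, 0.63 ± 0.08 for APEX1, 0.44 ± 0.10 for FANCG, 0.38 ± 0.07 for MSH6, 0.31 ± 0.11 for CHEK1 and 0.27 ± 0.08 for PMS1. It was -0.85 ± 0.07 for LIG4, -0.39 ± 0.13 for ATM, -0.36 ± 0.10 for ERCC1, -0.30 ± 0.10 for XRCC4, -0.26 ± 0.09 for WRN and -0.21 ± 0.07 for FANCL. For the knockdown effect with EtOH it was -0.43 ± 0.10 for RAD18, -0.34 ± 0.07 for LIG4 and -0.33 ± 0.09 for RAD54B. For the knockdown effect with DHT it was 0.35 ± 0.07 for FANCL and 0.34 ± 0.08 for PMS1. As given above, the ATM and RAD18 differences depended on the probe set, and CHEK1 had no settled direction in LNCaP. The RAD54B difference in the knockdown effect was lost without any of several single arrays, and with centred arrays (adjusted p = 0.0572).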

How the results depend on the processing

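Of 58 named member results, 25 kept their direction and their side of the threshold in every setting that held the gene, and 7 turned in at least 1. The GAPDH ratio in the fit lost 17 of 47, and averaging the probe sets lost 16 and turned 4 of 58. The GAPDH ratio did not overlap between the VCaP groups compared, so losses with it there do not show an effect of RNA integrity. Leaving out sets with the suffix _x_at or _s_at left 25 members and 49 of the 58 results. UNG and APEX1, each with 1 set of the suffix _s_at, could not be checked in that setting. It turned ATM to -0.31 and RAD50 to -0.12 with DHT in siControl cells, RAD50 to -0.052 with DHT in siERG cells and PMS1 to -0.033 with DHT in shControl cells. Among other repair genes it turned FANCM to 0.10 with siERG and DHT and EME1 to -0.037 with DHT in siControl cells. Averaging the sets turned ATR to -0.016 and RAD50 to -0.0075 with DHT in siERG cells, and CHEK1 to 0.028 in shControl and 0.056 in shETV1 cells with DHT. Members called with siERG and EtOH (2) became 1 with averaged sets, without _x_at and _s_at sets, with no filter, with a trended variance and with the replicate block, and 0 with the GAPDH ratio. With siERG and DHT (2) there was 1 without _x_at and _s_at sets or with no filter and 0 with the GAPDH ratio. With DHT in siERG cells (17) there were 6 with the GAPDH ratio. With shETV1 and EtOH (1) there were 0 with averaged sets, without _x_at and _s_at sets, with no filter, with the GAPDH ratio and with the replicate block, and 2 with quantile normalization. With shETV1 and DHT (1) there were 2 with averaged sets and 2 without _x_at and _s_at sets, and 0 with no filter, with centred arrays and with the GAPDH ratio. With DHT there were 7 in shControl cells without _x_at and _s_at sets (12 before) and 5 in shETV1 cells with averaged sets (9 before). Line differences numbered 8 without _x_at and _s_at sets (DHT response, 13 before), 5 with centred arrays (knockdown with EtOH, 3 before) and 4 with averaged sets (knockdown with DHT, 2 before). Leaving out each array gave 1 to 3 with siERG and EtOH, 1 to 4 with siERG and DHT, 12 to 19 with DHT in siControl and 12 to 18 in siERG cells, 0 to 1 with shETV1 and EtOH and 0 to 1 with shETV1 and DHT, 7 to 13 with DHT in shControl and 8 to 12 in shETV1 cells, and 10 to 14, 2 to 5 and 2 to 3 for the line differences. The 7 in shControl cells came without shControl EtOH replicate A or shControl DHT replicate C. Both interactions stayed at 0 in all settings. Arrays of the same letter did not deviate together (correlations of -0.13 to 0.11 in VCaP and -0.22 to 0.12 in LNCaP), and the block lost 5 of the 58 member results. Over all genes, with no filter the share called with DHT was 28.1% in siControl, 27.8% in siERG, 24% in shControl and 21.9% in shETV1 cells, and 4.95%, 4%, 1.39% and 1.68% in the knockdown comparisons in the order above. The GAPDH ratio gave 20% with DHT in siERG cells, and 2.21% and 2.27% with siERG.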

Other observations

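Replication and S-phase genes also differed between the lines in their DHT response. Of 45 tested, 20 had the higher response in LNCaP control cells and 3 the lower, 51.1%, against 31.9% of all genes, with a median difference of 0.20 (LNCaP minus VCaP, log2). Of 26 mitosis genes, 7 had the higher response in LNCaP and 0 the lower, against 17.6% and 14.3% of all genes, or 3 and 1 with quantile normalization. In LNCaP with shETV1 and DHT, 7 of the 45 replication genes rose against shControl with DHT and 0 fell, where 2.68% of all genes rose and 2.5% fell. With centred arrays or quantile normalization 4 rose and 0 fell. The all-gene split of this comparison, 343 up and 320 down, became 223 and 485 with centred arrays and 218 and 431 with quantile normalization. BLM had intensities of 70.9 to 115 on the 12 LNCaP arrays and 140 to 200 on the 12 VCaP arrays. The array medians differed too, at 42.7 to 44.8 in LNCaP and 47.6 to 53.3 in VCaP. The intensities also look processed per line, so levels were not tested between the lines and these ranges show no difference in expression.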
